A study of Bos taurus with 81 samples.

Results

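The regions described here are 1 kb stretches of the bovine genome that carried trimethylated lysine 4 of histone H3 (H3K4me3) at the 8-cell stage, but neither at the 4-cell stage nor in 8-cell embryos grown with a transcription inhibitor. Autosomes 1 to 29 were cut into 1 kb bins, and a bin counted as marked in a peak list when peaks covered at least 50% of it. A gained bin was marked in both H3K4me3 lists of 8-cell embryos and in none of the 4 lists of 4-cell and inhibitor-treated embryos. There were 5400 gained bins among 2488055 autosomal bins, which is 0.217% of all bins and 8.54% of the 63228 bins (2.54% of all) marked in both 8-cell lists. The bins were chosen by the H3K4me3 values of these 3 groups, which are therefore given as a description only.

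The study profiled H3K4me3, H3K27ac, H3K27me3 and H3K9me3 by CUT&Tag, in which a tethered transposase cuts DNA beside an antibody-bound mark, and open chromatin by ATAC-seq. All embryos were produced in vitro from slaughterhouse ovaries. The groups were germinal vesicle oocytes taken before maturation (GV), 2-cell embryos at 32 h after insemination (2C), 4-cell embryos at 44 h (4C), 8-cell embryos at 56 h (8C), morulae at 122 h (MO) and blastocysts at 172 h (BL). Inner cell mass (ICM) was isolated from blastocysts by immunosurgery and trophectoderm (TE) was cut off with a micro-scalpel. The inhibitor group (8A) consisted of 8-cell embryos of 56 h cultured with 50 μg/ml α-amanitin, and the other groups were not treated. Each library pooled about 500 oocytes or 1000 to 1500 blastomeres, so none describes a single embryo. There were 2 libraries of each mark in every group and 3 ATAC-seq libraries in each of BL, ICM and TE. H3K4me3 lists held between 22745 and 185272 peaks, and the sequencing depth behind them was unknown. With 2 libraries against 2, an exact two-sided permutation test cannot go below 0.333, so values are set side by side without a test.

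H3K4me3 marks the promoters of active genes in most cells, and in oocytes it also lies in wide domains away from promoters. H3K27ac marks active promoters and enhancers, whereas H3K27me3 and H3K9me3 are marks of repressed chromatin. In cattle the main wave of embryonic transcription begins around the 8-cell stage. α-Amanitin blocks RNA polymerase II, the enzyme that makes messenger RNA.

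Among the 6713 bins marked in both 8C lists and in no 4C list, 80.4% were in no 8A list and are the gained bins. A further 1095 (16.3%) were in 1 of the 2 8A lists and 218 (3.25%) in both. For comparison, 31301 bins were marked in both lists of 4C, 8C and 8A, and these are called carried bins. Another 5420 bins were in both 4C and both 8C lists but in no 8A list. Only 83 bins were in both 8A lists and in no 4C or 8C list.

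The 8C libraries were unequal in extent. Their lists covered 68.6 Mb and 112 Mb of the autosomes, against 94.7 Mb and 110 Mb in 4C and 60.4 Mb and 52.2 Mb in 8A. Selecting on 8C replicate 1 alone gave 8020 bins, of which 67.3% were also in the other 8C list, while replicate 2 alone gave 24600, of which 22.0% were. Without 4C replicate 2 the count was 8453. List length and the presence of the mark cannot be told apart in a single peak list. With the 6 lists cut from their lowest-scoring peaks to the length of the shortest of them, 52.2 Mb, 3277 bins were gained, and with all H3K4me3 lists cut to 37.7 Mb, 2614.

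Many gained bins lay near the coverage limit, and most stood alone. The mean number of bases covered per gained bin was 694 and 768 in the 8C libraries, 153 and 170 in 4C, and 122 and 104 in 8A. Just inside the limit, 2125 gained bins (39.4%) had 500 to 550 bp covered in the lesser 8C list, and just outside it 3671 bins in no 4C or 8A list had 400 to 450 bp. On the other side of the rule, 1929 gained bins (35.7%) had 400 to 450 bp covered in their highest 4C or 8A list, and 3463 bins of both 8C lists were kept out with 500 to 550 bp. The gained bins formed 4942 runs of touching bins, of which 4564 (92.4%) were single bins, 320 were 2 kb long and 1 was 6 kb long. A stricter subset of 1284 gained bins (23.8%) had no base of a 4C or 8A peak, and 279 (5.17%) were wholly covered in both 8C lists.

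Most gained bins held part of an 8C peak that also overlapped a peak present at 4C. Any 8C peak with bases in the bin was counted, so it need not be the peak that covered most of the bin. Such an 8C peak touched a 4C peak for 77.0% of gained bins in replicate 1 and 80.4% in replicate 2, a mean of 78.7% ± 2.45 (SD, n = 2). In both lists it did so for 4068 bins (75.3%), called extending bins below, and in neither for 969 (17.9%), called separate bins. The other 363 differed between the lists. Among the other bins of both 8C lists, 99.8% touched a 4C peak in both, a share that the selection favours because most of those bins were themselves marked in 4C.

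Within the span of the 8C peaks over the bin, 75.7% of extending bins had 4C-covered bases on 1 side only in replicate 1. A further 8.63% had them on both sides and 15.7% only inside the bin itself. The corresponding shares in replicate 2 were 76.5%, 13.2% and 10.3%. Bases on both sides need 8C peaks that span more than the 1 kb bin. The 8C peaks with bases in a gained bin had median widths of 850 bp in replicate 1 and 1300 bp in replicate 2. These shares therefore cannot compare how often an edge was widened and a gap between 4C peaks filled. Whether or not the peaks touched, 87.6% of gained bins lay within 1 kb of a 4C peak and 94.5% within 5 kb, against 9.74% and 23.1% of the other bins that were in no 4C or 8A list and not in both 8C lists. The share of extending bins depended on how much older signal a bin could hold. In the strict subset without a base of a 4C or 8A peak it was 24.4%, although 57.4% of that subset lay within 1 kb of a 4C peak and 81.8% within 5 kb. With bins marked at 25% coverage it was 45.1%.

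The 8C peaks that held a gained bin were narrower than those with carried bins and wider than the median 8C peak, which was 600 bp in replicate 1 and 850 bp in replicate 2. Peaks with a gained bin had a median width of 850 bp in replicate 1 and 1300 bp in replicate 2, with a median of 300 and 350 bp, and 500 and 550 bp, covered in the 4C libraries. Peaks with a carried bin and no gained bin were 1250 and 2100 bp wide, with 1100 and 1100 bp, and 1650 and 1700 bp, covered in 4C. By the authors' own peak score, peaks with a gained bin had median percentiles of 64.0 and 71.1 within their lists, and peaks with a carried bin and no gained bin 78.4 and 87.2. These values come from lists that the selection used and are a description only. Carried bins had to be marked in 4C and gained bins not, which favours the order in 4C coverage. Any 8C peak with bases in a chosen bin was counted, which favours wide peaks over the median 8C peak.

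Oocytes and 2-cell embryos, which the selection did not use, carried the mark in part of these bins. GV libraries marked 20.8% and 27.9% of gained bins and 2C libraries 21.2% and 25.3%, against 5.82% and 7.47%, and 4.76% and 4.72%, of all bins. In all, 2719 gained bins (50.4%, against 9.6% of all bins) were in at least 1 GV or 2C list. Both GV lists marked 786 (14.6%, against at most the 5.82% of all bins in GV replicate 1 alone). Those 786 bins were marked in the oocyte, below the coverage limit at 4C and in 8A, and above it at 8C, which can be a small change in coverage. Of them, 240 (4.44% of gained bins, against 2.58% of all bins) were also in both 2C lists. Carried bins differed widely from this, with 87.1% and 91.1% marked in GV and 97.8% and 97.2% in 2C. The strict subset was marked in a GV or 2C list in 27.8% of its bins.

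New peaks in the narrow sense were few. For 382 gained bins (7.07%) no 8C peak with bases in the bin touched a GV, 2C, 4C or 8A peak in either list. Such a touch was found in both lists for 90.2%. Even of these 382, 73.3% lay within 5 kb of a 4C peak, and 80 lay over 5 kb from every GV, 2C, 4C and 8A peak. They are called bins without an earlier peak below.

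**Figure D1:**
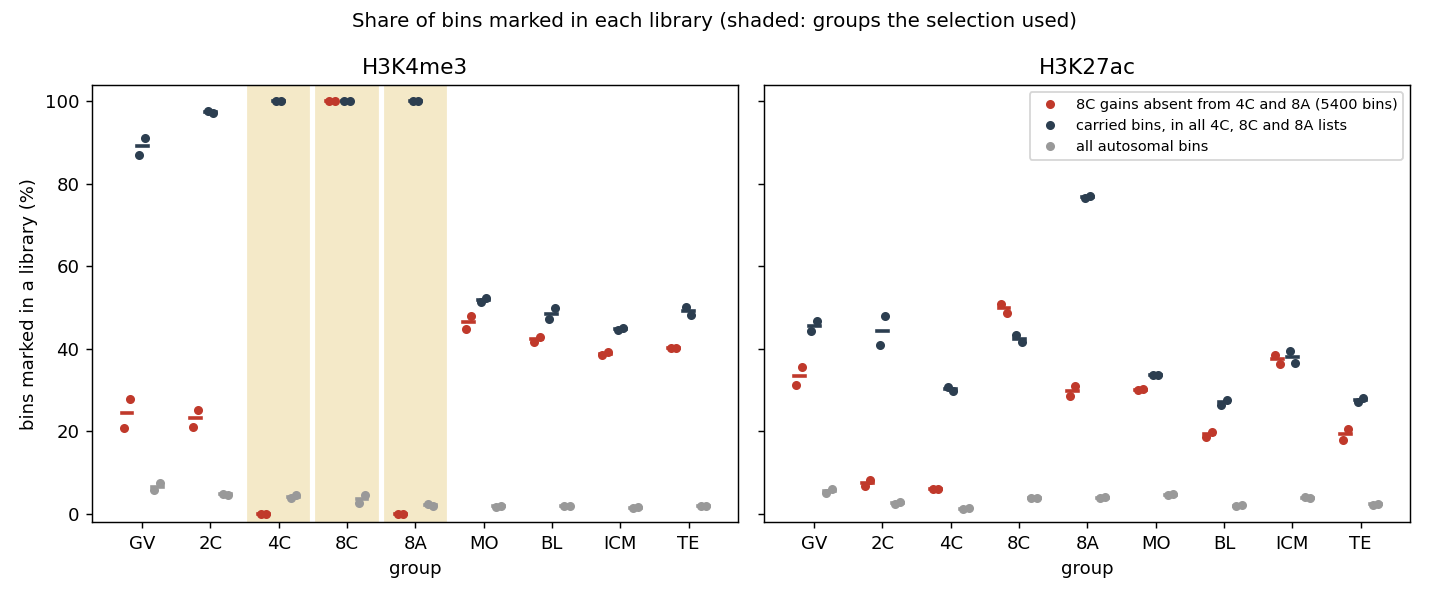
Share of bins marked in each library (vertical axis, percent) by group (horizontal axis), for H3K4me3 (left) and H3K27ac (right), in the 5400 gained bins, the carried bins and all autosomal bins. Points are libraries, lines are means of 2 libraries, and shading marks the groups that the selection used. H3K27ac in gained bins was higher in 8C (51.0% and 48.8%) than in 8A (28.5% and 31.1%), while carried bins had the opposite order.

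H3K27ac was not used by the selection, and it differed between untreated and inhibited embryos in the gained bins. It marked 31.3% and 35.7% of gained bins in GV, 6.69% and 8.26% in 2C, 6.04% and 6.00% in 4C, 51.0% and 48.8% in 8C, and 28.5% and 31.1% in 8A. The 8C libraries stood above both the 4C and the 8A libraries with no overlap. Over all bins, the 8C and 8A lists marked similar shares, 3.88% and 3.84% in 8C against 3.85% and 4.13% in 8A. The plot of shares by group shows the same values beside the carried bins.

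Carried bins had the opposite order. H3K27ac marked 43.3% and 41.7% of them in 8C but 76.6% and 77.2% in 8A. The mean 8C share minus the mean 8A share was 20.1 percentage points in gained bins and -34.4 in carried bins. Neither changed sign in any setting tried, none of which left out an H3K27ac library. In the gained bins the difference was 3.24 points when bins were chosen without 8C replicate 1 of H3K4me3, and 10.9 without 4C replicate 2. In the strict subset it was 31.9.

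In both 8C lists H3K27ac marked 2200 gained bins (40.7%, against 2.56% of all bins), compared with 36.2% of carried bins. Of the gained bins, 960 (17.8%, against 1.08% of all bins) had it in both 8C lists and in no 4C or 8A list, the same pattern as their H3K4me3. Only 413 carried bins (1.32%) had that pattern. Chosen without 8C replicate 1, the 17.8% became 8.66% and the 40.7% became 22.5%. A second set of 461 gained bins (8.54%, against 0.415% of all bins) had H3K27ac in both 8C and both 8A lists and in no 4C list, so acetylation was present under α-amanitin where H3K4me3 stayed below the limit. Carried bins had that H3K27ac pattern in 10.5%. H3K27ac in both 8A lists and in no 8C list was seen in 226 gained bins (4.19%, against 1.23% of all bins) and in 27.4% of carried bins.

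Separate bins were acetylated more often than extending bins. H3K27ac was in both 8C lists at 54.7% of separate bins and 37.2% of extending bins. It was there at 63.6% of bins without an earlier peak, marking 69.9% and 69.1% of them in the 8C libraries, 32.5% and 36.1% in 8A and 5.76% in each 4C library. H3K27ac in both 8C and both 8A lists was seen in 22.8% of separate and 10.8% of extending bins, against 0.988% of all bins. With H3K27ac in both 8C lists and in no 4C or 8A list the shares were closer, 19.4% and 17.6%, against 1.08% of all bins.

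The oocyte also held H3K27ac at many of these places. Both GV lists marked 1364 gained bins (25.3%, against 4.08% of all bins and 40.1% of carried bins). In 629 of them (11.6% of gained bins, against 0.444% of all bins) H3K27ac was in both GV and both 8C lists and in neither 4C list. The corresponding share of carried bins was 8.94%.

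**Figure D2:**
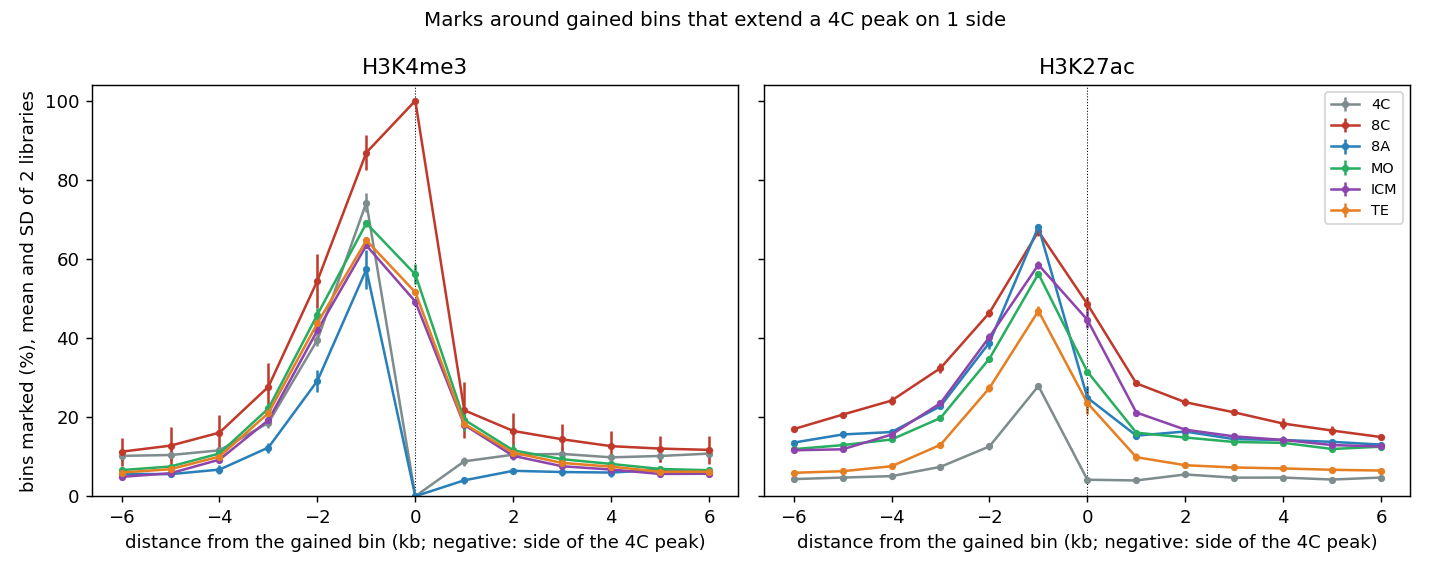
Share of bins marked (vertical axis, percent, mean and SD of 2 libraries) by distance in kb from the gained bin (horizontal axis), for 3080 extending bins with 4C-covered bases on 1 side in 8C replicate 1, turned so that the older 4C peak lies at negative distances. At the neighbouring bin on that side H3K27ac was alike in 8C (67.0%) and 8A (68.1%), and in the gained bin it was 48.6% and 24.9%.

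The profile around extending bins gives H3K27ac on both sides of the gained bin. It covers 3080 bins with 4C bases on 1 side in 8C replicate 1. In the neighbouring bin on the side of the 4C peak, H3K4me3 marked 74.3% in 4C, 86.9% in 8C and 57.3% in 8A, as means of 2 libraries. There H3K27ac marked 27.9% in 4C, 67.0% in 8C and 68.1% in 8A. It was the only position within 6 kb where the 8C mean was not above the 8A mean: 1 bin further over the older peak H3K27ac was 46.4% in 8C and 38.9% in 8A, and at 3 kb it was 32.4% and 22.8%. In the gained bin itself H3K27ac was 48.6% in 8C, 24.9% in 8A and 4.17% in 4C. In the next bin outward it was 28.5% in 8C and 15.3% in 8A, and at 2 kb 23.8% and 16.4%, while H3K4me3 dropped to 21.7% in 8C. Open chromatin of the ICM marked 64.7% of the neighbouring bins over the older peak, 31.1% of the gained bins and 8.06% of the next bins outward.

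After the 8-cell stage, gained bins were kept in part. H3K4me3 marked 44.9% and 48.0% of them in the MO libraries, 41.7% and 43.0% in BL, 38.6% and 39.1% in ICM and 40.2% and 40.4% in TE. Marked in both lists of a group were 2289 gained bins in MO (42.4%, against 1.65% of all bins), 2152 in BL (39.9%, against 1.73%), 1910 in ICM (35.4%, against 1.37%) and 2007 in TE (37.2%, against 1.64%). Carried bins had 49.5% in both MO lists, 46.4% in BL, 42.5% in ICM and 46.5% in TE. The share kept was lower in gained than in carried bins in each of the 4 groups, and far above that of all bins. Gained and carried bins were not matched for coverage at 8C, and the kept shares of carried bins were computed in the main setting only.

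Chosen without 8C replicate 1, these shares were 16.2% in MO, 16.1% in BL, 13.5% in ICM and 14.8% in TE. With all H3K4me3 lists cut to the same length they were 60.5%, 57.7%, 56.5% and 57.0%. The share also rose with the part of the bin that was covered at 8C. Gained bins with 500 to 550 bp in the lesser 8C list were in all 8 later lists in 20.5% of cases, those with 600 to 750 bp in 29.1% and those with 800 to 1000 bp in 45.1%. H3K27ac in both 8C lists followed the same order, at 32.3%, 39.8% and 56.7%. Carried bins were not split by coverage, and 39.2% of them were in all 8 later lists. The best covered gained bins thus exceeded the carried bins as a whole.

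The later lists divided most gained bins into a kept and a lost group. All 8 lists of MO, BL, ICM and TE marked 1589 gained bins (29.4%, against 1.07% of all bins), and none of them marked 2401 (44.5%, against 97% of all bins). Carried bins were in all 8 lists in 39.2% and in none in 40.8%. All 57828 other bins of both 8C lists, carried bins included, were in all in 33.9% and in none in 46.5%. The 218 bins in both 8C and both 8A lists and in no 4C list were in all in 35.8% and in none in 44.0%. The bins kept from 4C only in untreated embryos were in all in 23.4% and in none in 58.3%. With all lists of each mark cut to the same length, 46.8% of gained bins were in all 8 and 24.0% in none. Chosen without 8C replicate 1, 10.1% were in all 8 and 74.2% in none.

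A passing mark in the morula and marks of a single blastocyst lineage were rare. In both MO lists and no BL, ICM or TE list were 192 gained bins (3.56%, against 0.172% of all bins and 2.45% of carried bins). In no MO list but both BL lists were 129 (2.39%, against 0.302% of all bins). Both ICM lists and no TE list marked 103 (1.91%, against 0.091% of all bins and 0.738% of carried bins). The reverse, both TE lists and no ICM list, held for 119 (2.20%, against 0.287% of all bins and 3.21% of carried bins).

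H3K27ac separated the blastocyst lineages more than H3K4me3 did. It marked 38.6% and 36.4% of gained bins in ICM but a mean of 19.3% ± 1.89 (SD, n = 2) in TE, with 30.1% and 30.3% in MO and 18.6% and 19.9% in BL. In both ICM lists and no TE list were 696 gained bins (12.9%, against 1.53% of all bins and 7.67% of carried bins), and the reverse held for 44 (0.815%, against 0.447% of all bins). The ICM lists were also longer, marking 4.11% and 3.83% of all bins against 2.28% and 2.40% in TE. The part of list length in this difference was not tested.

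**Figure D3:**
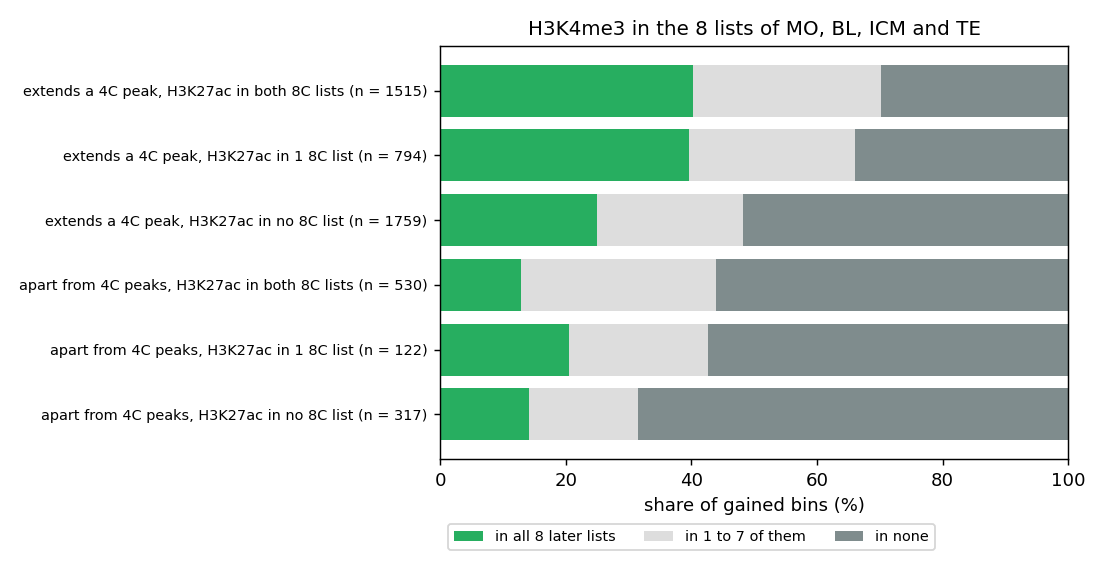
Share of gained bins (horizontal axis, percent) with H3K4me3 in all 8 lists of MO, BL, ICM and TE, in 1 to 7 of them or in none, for extending and separate bins split by H3K27ac at 8C (vertical axis, with the number of bins). Extending bins with H3K27ac in both 8C lists were in all 8 lists in 40.3% of cases, and separate bins with it in 12.8%.

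Fate differed with the position relative to 4C peaks and with acetylation at 8C. Extending bins were in all 8 later lists in 33.5% and in none in 40.1%, whereas separate bins were in all in 14.2% and in none in 60.3%. Both MO lists marked 46.1% of extending and 29.9% of separate bins. Among extending bins, those with H3K27ac in both 8C lists were in all 8 lists in 40.3% and in none in 29.8%, and those with it in no 8C list (2211 gained bins in all, 40.9%, against 94.8% of all bins) in 25.0% and 51.8%. Among separate bins the split by H3K27ac was seen in the lost share, 56.0% with it and 68.5% without it, but not in the kept share, 12.8% and 14.2%. More frequent acetylation at 8C thus did not go with a higher kept share in the separate bins.

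The bins in all 8 later lists (kept) and in none (lost) also differed before the 8-cell stage and under α-amanitin. Both 8A lists of H3K27ac marked 1091 gained bins (20.2%, against 2.65% of all bins), 10.2% of the kept and 29.6% of the lost bins. H3K27ac in both 8C lists and no 4C or 8A list was seen in 26.2% of kept and 8.66% of lost bins. The GV libraries marked 9.94% and 13.7% of kept bins with H3K4me3, and 30.9% and 40.9% of lost bins. H3K27ac in both GV lists had the opposite order, with 36.7% of kept and 16.5% of lost bins. The lost bins were thus more often H3K4me3 sites of the oocyte, and the kept bins more often H3K27ac sites of the oocyte.

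In the blastocyst most kept bins carried H3K27ac in the ICM, and open chromatin lay over many of them. H3K27ac marked 84.3% and 82.6% of them in ICM, against 4.25% and 4.16% of lost bins and 4.11% and 3.83% of all bins. Kept and lost bins were defined by H3K4me3 in lists that include those of ICM. ATAC-seq of ICM marked 47.9%, 57.9% and 47.9% of kept bins, 4.87%, 8.54% and 4.91% of lost bins, and 2.92%, 3.90% and 2.89% of all bins. Over all gained bins, 19.4% were in all 3 ICM ATAC lists (against 2.21% of all bins), 18.5% in all 3 of BL (against 2.35%) and 17.3% in all 3 of TE (against 2.31%). Carried bins had 48.6% in all 3 ICM lists. Without 8C replicate 1 in the selection, the ICM share of gained bins was 9.89%. It was 12.6% in the strict subset and 30.7% with all lists of each mark cut to the same length.

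Repressive marks were scarce at the 8-cell stage and differed between later fates. H3K27me3 marked 19.5% and 18.1% of gained bins in GV, 3.85% and 3.94% in 8C, 17.0% and 16.5% in MO, and 23.5% and 24.9% in BL. In both lists it held 170 gained bins at 8C (3.15%, against 4.31% of all bins), 799 in MO (14.8%, against 5.26%) and 1217 in BL (22.5%, against 9.66%). In the strict subset the shares were 5.92% in MO and 10.4% in BL, close to those of all bins. Chosen without 8C replicate 1, the MO share was 22.5%. Carried bins had 48.1% in both MO lists and 55.2% in both BL lists. In both BL lists H3K27me3 marked 44.1% of lost and 1.45% of kept bins, and 10.3% of bins with H3K27ac in both 8C lists against 37.7% of bins with it in neither.

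H3K9me3, a mark of silenced repeats and heterochromatin, marked 4.59% and 4.22% of gained bins in 8C, 6.00% and 5.76% in 8A, and 11.1% and 13.3% in BL. Over all bins the shares were 6.76% and 6.73% in 8C, 7.28% and 7.20% in 8A, and 4.03% and 5.38% in BL, so gained bins lay below them in 8C and 8A and above them in BL. In both BL lists it held 534 gained bins (9.89%, against 3.45% of all bins), and 18.8% of lost against 0.818% of kept bins. Carried bins had 30.2%.

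Gained bins were spread over every autosome. They made up between 5.72% (chromosome 29) and 11.6% (chromosome 27) of the bins marked in both 8C lists, with a median of 8.89%. Per Mb they ranged from 1.34 on chromosome 6 to 5.09 on chromosome 23. Of 2502 windows of 1 Mb, 1692 held at least 1 gained bin and 63 held 10 or more.

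The 5 windows with most gained bins differed in fate. In the build ARS-UCD1.2, chromosome 23 from 31000001 to 32000000 held 45, which is 24.5% of its 184 bins in both 8C lists. Of these 45, 29 had H3K27ac in both 8C lists, 40 were in both MO lists, 20 were in all 8 later lists and 3 in none. The window before it on chromosome 23, from 30000001 to 31000000, held 35 (36.8% of 95), with 14 in all 8 lists and 5 in none. Chromosome 18 from 64000001 to 65000000 held 31, with 7 in all and 15 in none. Chromosome 13 from 81000001 to 82000000 held 28, with 5 in all and 18 in none. Chromosome 7 from 52000001 to 53000000 held 25, with 17 in both MO lists, 6 in all 8 later lists and 5 in none. Of these 25, 2 had H3K27ac in both 8C lists and 10 had H3K27me3 in both BL lists.

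**Figure D4:**
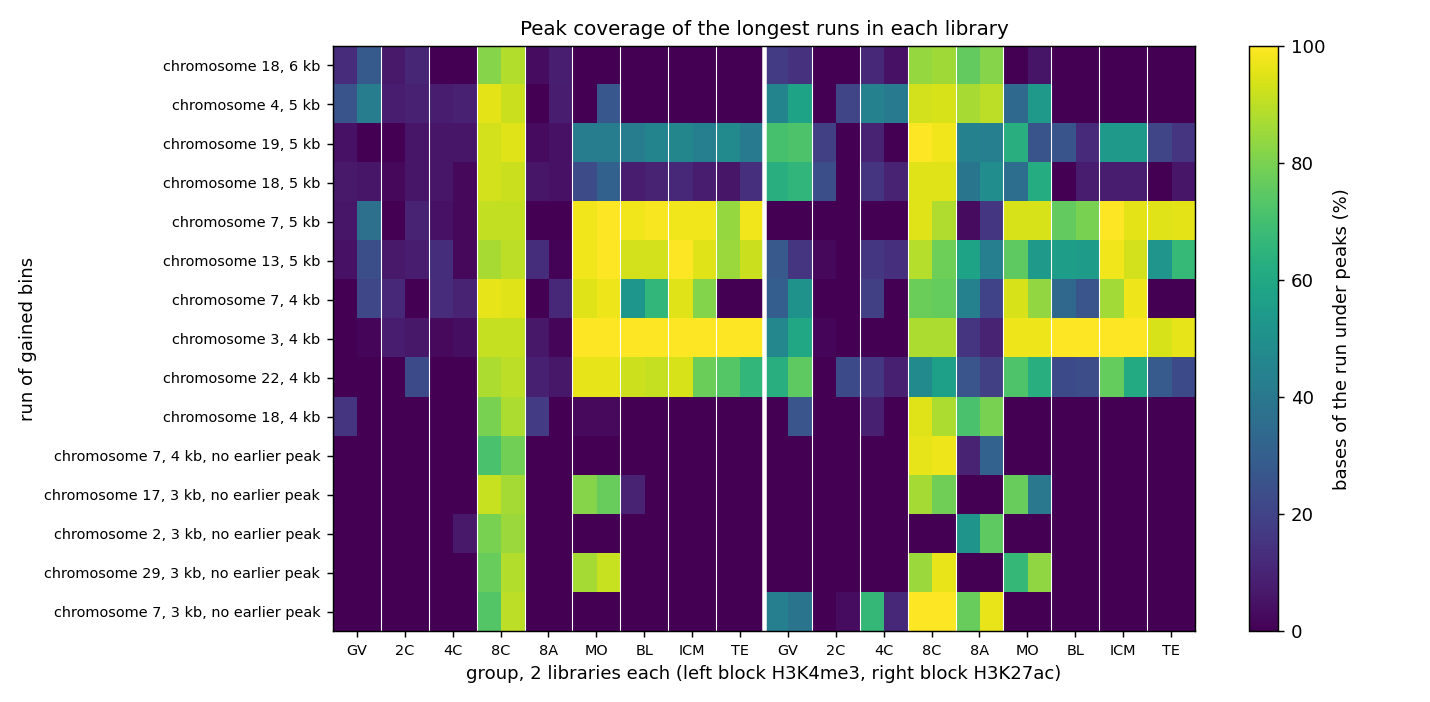
Bases under peaks in percent of run length (colour) in each library (horizontal axis, 2 per group, H3K4me3 left and H3K27ac right) for the 10 longest runs of gained bins and the 5 longest without an earlier peak (vertical axis). Some runs of H3K4me3 gained at 8C continued to the blastocyst in full or in part and others ended, and several had H3K27ac in 8A with little or no H3K4me3 there.

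The longest runs show these patterns at single places. The longest, on chromosome 18 from 64839001 to 64845000, had 4900 and 5300 of its 6 kb under H3K4me3 peaks in the 8C libraries, 0 and 0 bp in 4C, and 200 and 500 bp in 8A. H3K27ac covered 5050 and 5150 bp of it in 8C and 4550 and 4900 bp in 8A, so the acetylated run was nearly as long under α-amanitin. From MO on, no H3K4me3 base was listed there. The run on chromosome 18 from 60125001 to 60129000 was alike, with H3K27ac over 3800 and 3500 bp in 8C and 2850 and 3200 bp in 8A, and no more than 100 bp of H3K4me3 in any later library. A run on chromosome 4 from 93441001 to 93446000 had H3K27ac over 2200 and 2050 bp already in 4C, 4650 and 4700 bp in 8C and 4350 and 4500 bp in 8A, and H3K4me3 over 4800 and 4600 bp in 8C and 0 and 400 bp in 8A.

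Other long runs were kept, and in 2 of the 3 described here both marks covered little of the run in 8A. On chromosome 7 from 13585001 to 13590000, H3K4me3 covered 4550 and 4550 bp in 8C, 250 and 100 bp in 4C and none in 8A. H3K27ac covered 4750 and 4400 bp there in 8C, none in 4C, and 150 and 800 bp in 8A. The run stayed covered later, with 4900 and 5000 bp of H3K4me3 in MO and 4200 and 4900 bp in TE. The run on chromosome 3 from 16326001 to 16330000 had H3K4me3 over 3650 bp in each 8C library and 250 and 50 bp in 8A, then over all 4 kb in every library of MO, BL, ICM and TE. H3K27ac covered 3500 bp of it in each 8C library and 600 and 400 bp in 8A. On chromosome 13 from 81138001 to 81143000, H3K4me3 covered 4350 and 4500 bp in 8C and 4250 bp or more in each later library, with H3K27ac over 4450 and 3900 bp in 8C and still over 2900 and 2150 bp in 8A.

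Further kept and acetylated runs lay on chromosome 9 from 68181001 to 68185000, chromosome 1 from 133085001 to 133088000, chromosome 23 from 39757001 to 39760000 and chromosome 7 from 11345001 to 11347000. The run on chromosome 1 held no base of a GV, 2C, 4C or 8A peak, although such peaks lay within 200 bp of it. It was under H3K4me3 over 2450 and 2750 bp in 8C and over all 3 kb in each library of BL, ICM and TE. On the chromosome 7 run H3K27ac covered 1400 and 1800 bp in 8A and 1850 and 2000 bp in 8C.

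One of the 10 longest runs was marked in ICM and not in TE. On chromosome 7 from 29020001 to 29024000, H3K4me3 covered 3850 and 3800 bp in 8C, 3800 and 3900 bp in MO, 2100 and 2650 bp in BL, 3800 and 3250 bp in ICM, and none in either TE library. H3K27ac there covered 3450 and 3900 bp in ICM and none in TE. Of the other runs in this group, the one on chromosome 22 from 59076001 to 59080000 was covered over 3500 and 3600 bp in 8C and at least 2650 bp in every later library. Runs on chromosome 19 from 26958001 to 26963000 and chromosome 18 from 16799001 to 16804000 shrank. The former had 4650 and 4750 bp in 8C and between 2050 and 2400 bp in every later library, and the latter 4650 and 4600 bp in 8C and between 300 and 1550 bp later.

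The 5 longest runs without an earlier peak were brief. On chromosome 29 from 5224001 to 5227000, H3K4me3 covered 2300 and 2650 bp in 8C and 2600 and 2750 bp in MO, and H3K27ac 2550 and 2900 bp and 2000 and 2500 bp, with none of either in any other group. The run on chromosome 17 from 29001 to 32000 had 2750 and 2600 bp of H3K4me3 in 8C and 2450 and 2300 bp in MO, with 300 bp in 1 BL library and none in ICM or TE. On chromosome 7, the run from 41623001 to 41627000 lay 112650 bp from the nearest 4C peak and had H3K4me3 in 8C alone, over 2850 and 3150 bp. H3K27ac covered 3850 and 3900 bp of it in 8C and 400 and 1250 bp in 8A. The run from 17269001 to 17272000 on the same chromosome had H3K4me3 in 8C alone, over 2200 and 2700 bp, while H3K27ac was already listed over 2000 and 350 bp in 4C and reached 2300 and 2900 bp in 8A. The fifth, on chromosome 2 from 121537001 to 121540000, stood apart. It had no H3K27ac in 8C but 1550 and 2250 bp in 8A, and lay wholly under H3K9me3 in every group. H3K27me3 covered none of it in GV, a mean of 2800 bp in 2C and all 3000 bp in each of the other groups. The run also held 200 bp of a peak of 4C replicate 2 that the 8C peaks did not touch.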

How the data were processed

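Peak lists of 81 CUT&Tag and ATAC-seq libraries of bovine oocytes and embryos were used. The authors deposited 1 list per library, with a whole-number score for each peak whose meaning was not stated. It served only to rank peaks within a list. Per the submitters' processing notes, SICER, SAMtools 1.9 and Picard 2.26.10 were used beside BWA 0.7.9a, and reads were handled with cutadapt 1.8.3 and Trim Galore 0.4.0. The build was ARS-UCD1.2, per the same notes. The lists are named for epic2. How cutoffs, control libraries and duplicates were treated was not given in the sources used here. Read depth is unknown, so no interval is given.

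Coverage per bin was computed on a 50 bp grid with Python 3.11.15 and NumPy 2.4.6, and the code was tested on simulated data. Groups came from the sample labels. Nothing in the labels says that the 2 libraries of a group came from separate embryo pools, so the spread between them may be technical. Shares of all bins stand beside those of gained bins. Regions are named by rule: the 10 longest runs of gained bins, the 5 longest without an earlier peak, the 5 longest with H3K27ac in both 8C lists and H3K4me3 in all later lists, and the 5 windows of 1 Mb with most gained bins. Members and lists were chosen with earlier results of these data known. Alternatives were bin size, coverage limit, list length, peak joining and leaving out single libraries. The libraries left out were those of H3K4me3, and those of H3K27ac in 4C, 8C and 8A. No library of the repressive marks, of open chromatin or of H3K27ac in other groups was left out. How far their shares depend on a single one of those libraries was not tested. Gene names, gene lists and sequence were not analysed here, since no annotation or genome of ARS-UCD1.2 was used.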

Additional observations from a re-analysis of the deposited data

How the results depend on the processing

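The count of gained bins was 11027 with bins of 500 bp, 2884 with bins of 2 kb, 2614 with all lists of a mark cut to the shortest, 3277 with the 6 lists of 4C, 8C and 8A cut to the shortest of them, and 1284 with no base of a 4C or 8A peak allowed. The last 2 settings were chosen after seeing the data. In the order 25% coverage, 75% coverage, 500 bp, 2 kb, lists of a mark cut, 6 lists cut, and no older base, the share extending a 4C peak was 45.1%, 93.4%, 61.2%, 94.5%, 68.6%, 72.4% and 24.4%. It was 87.6% or 94.5% with a 4C peak within 1 kb or 5 kb, 58.4% with both 4C lists required and 86.9% with 8C peaks under 1 kb apart joined. In the same order the share with H3K27ac in both 8C lists was 45.1%, 33.4%, 37.8%, 42.9%, 37.0%, 45.7% and 56.5%, and 57.6% with any base counted. H3K4me3 in both lists was 38.8%, 48.5%, 40.4%, 51.1%, 60.5%, 58.6% and 40.4% in MO, 36.4%, 44.8%, 37.7%, 47.2%, 57.7%, 56.9% and 36.6% in BL, 31.7%, 41.2%, 33.4%, 43.9%, 56.5%, 51.8% and 31.6% in ICM, and 33.2%, 43.2%, 35.2%, 45.2%, 57.0%, 54.3% and 31.7% in TE. The share with H3K4me3 in a GV or 2C list was 46.6% with 2 kb bins, 30.0% with lists of the mark cut, 62.2% with the 6 cut and 27.8% with no older base. H3K27ac in both 8C lists and in no 4C or 8A list was 16.5% at 25% coverage and with 500 bp bins, 21.3% with 2 kb bins, 19.0% with lists cut and 24.3% with no older base.

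Leaving out 1 library gave counts of 5795 to 24600, extending shares of 68.1% to 77.0%, GV or 2C shares of 42.3% to 63.1%, H3K27ac in both 8C lists of 22.5% to 51.0%, that share without 4C or 8A H3K27ac of 8.66% to 24.4%, and kept shares of 16.2% to 48.0% in MO, 16.1% to 43.0% in BL, 13.5% to 39.1% in ICM and 14.8% to 40.4% in TE. With a library left out, the rule for its group used the remaining list alone, so the count could only rise. The upper ends of the H3K27ac shares and of the kept shares are likewise shares in 1 list, not in both. Beyond this, the cause of the changes was not tested. The difference of H3K27ac between 8C and 8A kept its sign in gained and in carried bins in every setting run for it. Leaving out an H3K27ac library was not among those settings. No paired analysis was possible because the labels give only replicate numbers, which do not say that libraries of different groups belong together. The results also come from no test.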
